A study of Homo sapiens with 4 samples.

Results

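The H3K27ac peaks of the short arm of chromosome 9 were taken from the peak lists of control (sgCtrl) and *SNHG1*-depletion (sgSNHG1) SK-N-BE(2)C cells, as all peaks on chromosome 9 that end at or before base 43000000 of GRCh38. These were 764 of the 113818 peaks in both lists, with 465 of 63699 in the sgCtrl list and 299 of 50119 in the sgSNHG1 list. The arm was described in 2 stretches, a distal stretch from the telomere to base 28000000 (191 peaks in sgCtrl and 70 in sgSNHG1) and a proximal stretch from base 28000000 on (274 and 229). The arm and the boundary were chosen by the numbers and the heights of the peaks, which differed between the lists there. The differences between the lists are therefore given as a description and no test was made of them.

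SK-N-BE(2)C is a human cell line from neuroblastoma, with amplified *MYCN*. All cells were transfected with constructs for Cas9 and guide RNA, selected with puromycin and grown from sorted single cells. The sgCtrl cells received a non-targeting guide RNA and are labelled wildtype, whereas the sgSNHG1 cells received guide RNAs against *SNHG1* and are labelled *SNHG1* knockout. Despite this label, the paper states that the knockout was incomplete and that *SNHG1* expression was repressed. Each group had 2 ChIP-seq samples, and the authors combined the reads of both samples before calling peaks once per group. A difference between the lists is thus a difference between 2 pooled libraries, with no spread between replicates to set it against, and the sources used here do not name the sgSNHG1 clone or an input library. A difference between clones and a difference made by the depletion of *SNHG1* cannot be told apart.

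H3K27ac is an acetylated histone residue found at active promoters and enhancers. The distal part of 9p holds the *CDKN2A*/*CDKN2B* tumor suppressor locus with its neighbor *MTAP*, the type I interferon cluster and the *JAK2*/*CD274* locus, and it is a known site of copy number loss in many tumors. The proximal part is rich in widely expressed genes, and the end next to the centromere holds duplicated sequence in which reads are hard to place. The signal of a ChIP-seq peak depends on the acetylation of each copy of a locus and also on the number of copies in the cells.

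Marker genes of adrenergic neuroblastoma had promoter peaks in both lists. All 9 adrenergic marker genes examined had a promoter peak in each list, whereas of 5 markers of other cell types only *EPCAM* had one in either list. Of 3 mesenchymal markers, *FOSL1* and *YAP1* had a promoter peak in both lists and *PRRX1* in neither. Of the 19261 protein-coding genes outside chromosome 9, 12996 (67.5%) had a promoter peak in sgCtrl and 12731 in sgSNHG1. The presence of a peak therefore says little about the cell state. Peaks are called promoter peaks here if they lie at most 3 kb from the start of a protein-coding transcript. The depth of the samples is unknown. The number of fragments over each summit (the pileup) was recovered from the fold enrichment and the −log10 p of each peak, and the height of a shared peak is given as the log2 ratio of the sgSNHG1 to the sgCtrl pileup minus the median of that ratio over all 38492 shared peaks compared (-0.20). This difference is called the relative height. Intervals are 95% intervals that cover counting error only.

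Reference sequences of 200 bases at the summits of peaks that represent the arm are shown first, all from the plus strand of GRCh38. Capitals mark matches on either strand to the 8 motifs searched, of which the GC box (GGGCGG) and the E-box CATCTG, of the kind bound by many helix-loop-helix proteins, were found in these sequences. *FOCAD* and *PSIP1* had distal promoter peaks of high fold enrichment, found in both lists at a lower height in sgSNHG1. *MLLT3* had the distal promoter peak of highest fold enrichment that only the sgCtrl list held. The next sequence comes from the last shared peak before base 28000000. *RECK* had a proximal promoter peak found in both lists, and the last sequence comes from one of the few distal peaks that only the sgSNHG1 list held.
FOCAD promoter, intron, chr9:20684368-20684567: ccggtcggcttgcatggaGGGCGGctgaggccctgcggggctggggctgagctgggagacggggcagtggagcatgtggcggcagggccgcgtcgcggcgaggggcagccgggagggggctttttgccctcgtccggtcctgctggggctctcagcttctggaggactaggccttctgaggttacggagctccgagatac
PSIP1 promoter, intron, chr9:15510590-15510789: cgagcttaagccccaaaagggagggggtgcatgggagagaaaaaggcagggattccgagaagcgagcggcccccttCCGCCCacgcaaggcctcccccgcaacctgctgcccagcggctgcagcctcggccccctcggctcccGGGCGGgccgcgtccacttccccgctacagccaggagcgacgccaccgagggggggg
MLLT3 promoter, intron, chr9:20621566-20621765: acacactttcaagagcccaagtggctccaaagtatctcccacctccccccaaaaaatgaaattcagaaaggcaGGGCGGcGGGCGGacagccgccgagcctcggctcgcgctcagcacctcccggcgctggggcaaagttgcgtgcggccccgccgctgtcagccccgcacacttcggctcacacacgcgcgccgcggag
last shared peak before the boundary, intron of a non-coding RNA gene, chr9:27835311-27835510: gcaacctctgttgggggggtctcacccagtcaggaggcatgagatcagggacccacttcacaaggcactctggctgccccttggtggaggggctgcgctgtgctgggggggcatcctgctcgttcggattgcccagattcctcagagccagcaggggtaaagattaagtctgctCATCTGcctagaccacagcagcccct
RECK promoter, intron, chr9:36037126-36037325: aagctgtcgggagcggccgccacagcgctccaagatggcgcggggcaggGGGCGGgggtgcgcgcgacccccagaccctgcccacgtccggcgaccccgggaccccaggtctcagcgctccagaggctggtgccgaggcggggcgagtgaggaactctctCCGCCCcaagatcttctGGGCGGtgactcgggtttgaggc
sgSNHG1 list only, intron of the non-coding gene LINC03041 near BNC2, chr9:16320380-16320579: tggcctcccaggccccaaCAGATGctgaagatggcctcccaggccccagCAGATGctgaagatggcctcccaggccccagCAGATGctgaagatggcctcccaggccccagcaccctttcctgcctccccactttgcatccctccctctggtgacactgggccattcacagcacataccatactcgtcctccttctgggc
The promoter sequences of *PSIP1* and *MLLT3* each held 2 GC boxes and that of *RECK* held 3. The sgSNHG1-only sequence held the E-box CATCTG 3 times on the minus strand, in a unit that is repeated in tandem.

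Peaks of the distal stretch were fewer in sgSNHG1 than in sgCtrl. The sgCtrl list held 191 peaks (6.82 per Mb) and the sgSNHG1 list 70 (2.50 per Mb), a ratio of 0.366 (interval 0.275 to 0.484). The bases under peaks were 101169 and 35933, a ratio of 0.355. In the proximal stretch the numbers were 274 (18.3 per Mb) and 229 (15.3 per Mb), a ratio of 0.836 (interval 0.698 to 0.9997), and the covered length had a ratio of 0.7996. Over all other chromosomes the ratio was 0.790 (interval 0.780 to 0.799), and on chromosome 9 beyond base 43000000 it was 0.744 (interval 0.701 to 0.790). The proximal ratio thus lay near that of the other chromosomes and the distal ratio at less than the lower bound of either. Low values were also found on chromosome 4. Beyond base 52000000 of that chromosome there were 1102 peaks in sgCtrl and 450 in sgSNHG1, a ratio of 0.408 (interval 0.365 to 0.456).

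**Figure D1:**
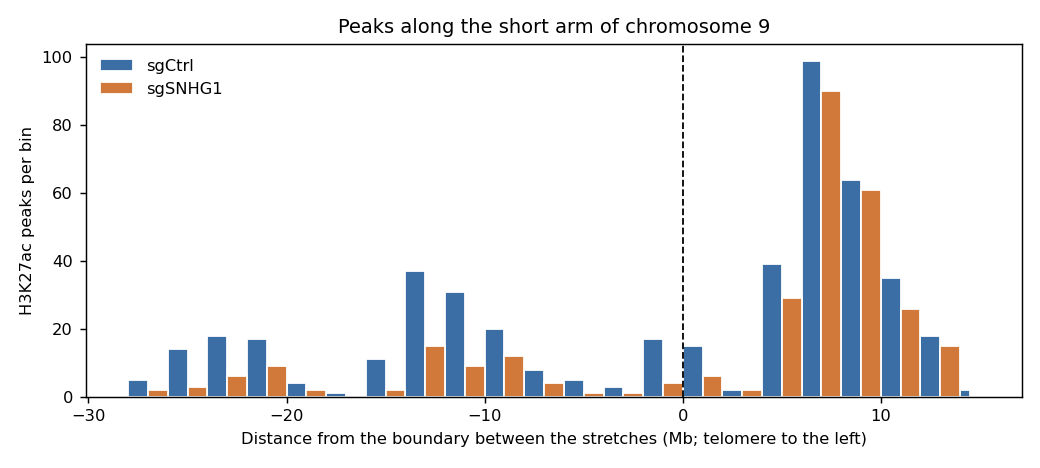
Number of H3K27ac peaks in bins of 2 Mb along the short arm of chromosome 9 (the last bin is 1 Mb), in sgCtrl (blue) and sgSNHG1 (orange), by distance from base 28000000 in Mb. In the 14 bins to the left of the dashed line sgSNHG1 had fewer peaks in every bin, such as 15 against 37 and 9 against 31 in the neighbouring bins with the most sgCtrl peaks, while 90 against 99 were found in the fullest bin to the right.

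The lower number was found along the whole distal stretch. Among 511 bins of 5 Mb with at least 20 sgCtrl peaks over the genome, 20 had a ratio under 0.5, of which 15 lay on chromosome 4 and 5 on chromosome 9. The 5 bins on chromosome 9 had ratios of 0.310 (0 to 5 Mb), 0.448 (5 to 10 Mb), 0.263 (10 to 15 Mb), 0.452 (15 to 20 Mb) and 0.333 (25 to 30 Mb). The bin from 10 to 15 Mb ranked the second lowest in the genome. The proximal bins had ratios of 0.812 (30 to 35 Mb), 0.913 (35 to 40 Mb) and 0.682 (40 to 45 Mb), against a median of 0.821 and a 5th percentile of 0.613 over the 503 bins outside the arm.

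Peaks away from promoters made up most of the difference. Distal promoter peaks numbered 71 in sgCtrl and 46 in sgSNHG1, a ratio of 0.648 (interval 0.437 to 0.952), and the other distal peaks 120 and 24, a ratio of 0.200 (interval 0.123 to 0.312). On the other chromosomes the same ratios were 0.929 and 0.721, and in the proximal stretch 0.946 (112 and 106 peaks) and 0.759 (162 and 123). Promoter peaks therefore took 37.2% of the distal sgCtrl peaks (interval 30.6% to 44.2%) and 65.7% of the distal sgSNHG1 peaks (interval 54.0% to 75.8%), compared with 40.9% and 46.3% in the proximal stretch and 32.9% and 38.7% on the other chromosomes. Chromosome 4 beyond base 52000000 was like the distal stretch, with promoter shares of 32.1% and 60.7%. Its ratio for peaks away from promoters was 0.237. By place of the summit, 99 of the distal sgCtrl peaks lay in introns, 44 in exons and 48 between genes, and the corresponding numbers in sgSNHG1 were 37, 21 and 12.

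Of the distal sgCtrl peaks, 129 of 191 (67.5%) had no overlapping sgSNHG1 peak, where 38.5% of all sgCtrl peaks had none. The shared part was 62 of 191 (32.5%, interval 26.2% to 39.4%), made of 41 of 71 promoter peaks (57.7%) and 21 of 120 other peaks (17.5%, interval 11.7% to 25.3%). In the proximal stretch, 178 of 274 (65.0%, interval 59.1% to 70.4%) were shared, with 92 of 112 promoter peaks (82.1%) and 86 of 162 others (53.1%), near the 79.5% and 52.9% of the other chromosomes. In the opposite direction, 63 of the 70 distal sgSNHG1 peaks (90.0%, interval 80.8% to 95.1%) and 182 of the 229 proximal ones (79.5%) overlapped an sgCtrl peak, so that 10.0% and 20.5% did not, where 20.8% of all sgSNHG1 peaks did not. The distal sgSNHG1 list was in this sense nearly a subset of the sgCtrl list. The same was seen on chromosome 4 beyond base 52000000, where 36.8% of the sgCtrl and 91.8% of the sgSNHG1 peaks were shared.

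Shared and unshared distal peaks differed in height within the sgCtrl list. The median pileup was 82 fragments for shared and 28 for unshared distal peaks, and the unshared ones ranged from 21 to 58. Under a pileup of 30, 1 of 74 distal sgCtrl peaks was shared (1.35%, interval 0.239% to 7.27%), compared with 9 of 38 in the proximal stretch (23.7%) and 32.0% on the other chromosomes. At 30 to 49 fragments, 13 of 64 distal peaks were shared (20.3%), compared with 53.8% and 51.3%. At 50 to 79 fragments the order was no longer seen, with 16 of 21 distal peaks shared (76.2%), 72.6% of the proximal ones and 64.5% on the other chromosomes. All 32 distal peaks of 80 fragments or more (15 and 17 in the highest classes, intervals 79.6% to 100% and 81.6% to 100%) were shared. From 80 to below 120 fragments, 91.8% of the proximal peaks and 76.5% on the other chromosomes were shared. At 120 fragments or more these shares were 100% and 93.3%. The classes were not matched on local background. Its sgCtrl median was 5.11 fragments in the distal stretch, 10.3 in the proximal stretch and 12.8 on the other chromosomes. Peaks of equal pileup can thus lie at unlike distances from the threshold of the peak caller, so their shares are not fully comparable. The lists hold no peak with a −log10 p under 6, and their lowest pileups were 19 in sgCtrl and 18 in sgSNHG1, so a peak missing from a list may have had signal under the threshold.

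The distal peaks found in both lists were lower in sgSNHG1. The 62 shared distal peaks had a median pileup of 82 fragments in sgCtrl and 45 in sgSNHG1. Their median relative height was -0.56 (interval -0.67 to -0.45), which is 0.676 times the ratio of the median shared peak, and the values ranged from -1.83 to 0.09. The relative height was below 0 in 61 of 62 distal peaks, where 50% of all shared peaks lie below 0, and 30 of them (48.4%) were at least 1.5-fold lower, where 5.75% of all shared peaks were. None of the distal peaks was at least 1.5-fold higher, where 8.86% of all were. The 177 shared proximal peaks had a median of 0.06 (interval 0.02 to 0.15), with 68 below 0, 6 at least 1.5-fold lower and 13 at least 1.5-fold higher. Their pileups had medians of 61 and 54 fragments. The medians were -0.08 on chromosome 9 beyond base 43000000 (1514 shared peaks) and -0.52 on chromosome 4 beyond base 52000000 (402 shared peaks, interval -0.57 to -0.46).

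Distal promoter peaks and other peaks were both lower, with median relative heights of -0.51 (41 peaks) and -0.65 (21 peaks). In all shared peaks the promoter peaks were higher than the others, with medians of 0.20 and -0.11, and in the proximal stretch the medians were 0.25 (91 peaks) and -0.04 (86 peaks). Set against its own kind in the whole series, each kind of distal peak was thus lower. Matching on GC content gave a distal median of -0.58. The local background that the peak caller used was at the median also lower at the distal shared peaks. Its relative log2 ratio had a median of -0.57 at the distal and 0.05 at the proximal shared peaks. This background has a lowest value in each list, at which 44.5% of all distal sgCtrl peaks and 54.3% of all distal sgSNHG1 peaks lay. For the proximal peaks these shares were 16.4% and 14.4%. The proximal median of 0.05 is also the value of pairs at the lowest background in both lists. The local background could therefore not follow the pileup at every peak, which also limits the fold enrichment. Fold enrichment, which is the ratio of pileup to local background, differed less, with a distal median of -0.17. Fewer copies of this DNA in the sgSNHG1 cells and less acetylation on each copy cannot be told apart here, because no input library was analysed here, and neither can a change in all cells and one in some of them.

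**Figure D2:**
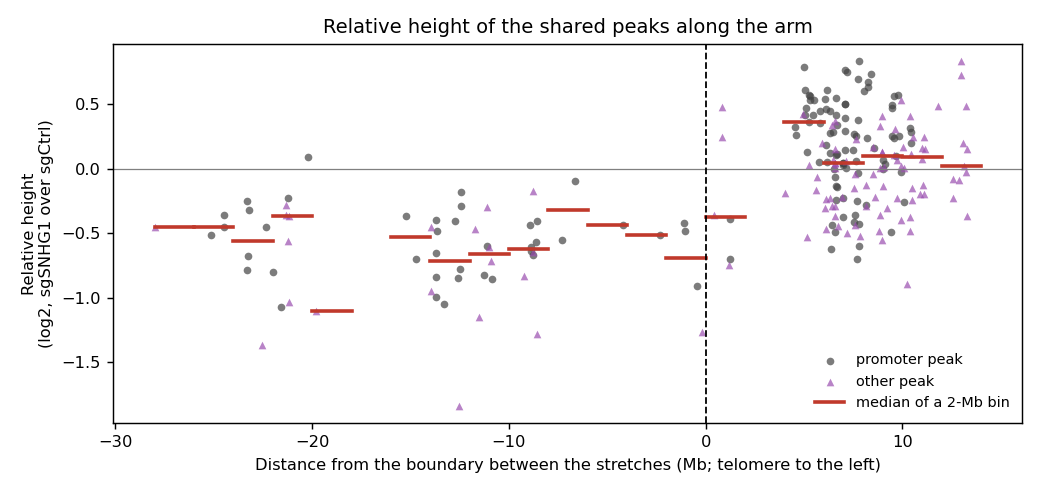
Relative height (log2 ratio of sgSNHG1 to sgCtrl pileup minus the median of all shared peaks) of the 239 shared peaks of the arm by distance from base 28000000 in Mb, with promoter peaks as circles, other peaks as triangles and medians of 2-Mb bins as red lines. All bin medians left of the dashed line lie between -1.10 and -0.32, the first bin to the right at -0.37, and the next bin with shared peaks at 0.36.

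Shared peaks were few and mixed in height just beyond the boundary at base 28000000. The last 3 shared peaks before it were those of *PLAA*, a factor of ubiquitin-dependent protein turnover (120 fragments in sgCtrl and 75 in sgSNHG1, relative height -0.48), *C9orf72*, a gene mutated in familial amyotrophic lateral sclerosis (166 and 77, -0.91), and an intron of the non-coding gene ENSG00000260390 (91 and 33, -1.27, chr9:27835098-27836434). The shared peaks just after it lay in introns of *LINGO2*, a neuronal leucine-rich repeat protein. Of the 6 shared peaks from 28 to 30 Mb, 4 were below 0 and 2 above it, with a median of -0.37. The 2 above 0 had 33 and 34 fragments (0.24, chr9:28807082-28807347) and 38 and 46 (0.47, chr9:28809492-28809746). The highest promoter peak of *LINGO2*, from base 29211716 to 29212590, was again lower in sgSNHG1, with 82 and 44 fragments (-0.70). From base 28000000 to 30000000 the sgCtrl list held 15 peaks and the sgSNHG1 list 6, and from 30000000 to 32000000 each list held 2 and none was shared. The bin from 32 to 34 Mb held 39 and 29 peaks with a median relative height of 0.36. The change in height along the arm therefore lay in a stretch with few peaks between about 28 and 32 Mb and was not placed more closely.

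The strongest distal promoters kept their peaks at a lower height. The 5 shared distal peaks of highest fold enrichment in sgCtrl were at *FOCAD*, which encodes focadhesin (89 fragments in sgCtrl and 53 in sgSNHG1, relative height -0.55), *TUSC1*, a candidate tumor suppressor (144 and 88, -0.51), *RPS6*, a protein of the small ribosomal subunit (160 and 94, -0.57), *CAAP1*, an apoptosis regulator (132 and 86, -0.42), and *CNTLN*, a centrosomal protein (141 and 68, -0.85). At *FOCAD* the fold enrichment was also lower, 14.99 in sgCtrl and 9.54 in sgSNHG1, while at *RPS6* it was 14.5 and 13.6 and at *TUSC1* 14.6 and 13.9. The 5 lowest relative heights of the arm were all distal and away from promoters. An intron of *SNAPC3*, a subunit of the complex that activates small nuclear RNA genes, had 90 and 22 fragments (-1.83, chr9:15441881-15442748). The others lay in introns of *PLGRKT* (62 and 21, -1.36), *ACER2*, a ceramidase (89 and 32, -1.28), the non-coding gene named above (-1.27) and *BNC2*, a zinc finger protein (66 and 26, -1.15).

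In the proximal stretch, heights lay on both sides of 0. Among the 5 proximal shared peaks of highest fold enrichment were those at *ZCCHC7*, an RNA exosome cofactor (198 and 177 fragments, relative height 0.04), at *EBLN3P* (141 and 124, 0.01), in an exon of *GLIDR* (102 and 124, 0.48) and at *FBXO10* (199 and 204, 0.23). The 5 highest relative heights of the arm were all proximal. They lay at *HINT2*, a mitochondrial nucleotide-binding protein (104 and 161 fragments, 0.83), *APTX*, a DNA repair protein (82 and 123, 0.78), *FANCG* of the Fanconi anemia complex (50 and 74, 0.76), *UNC13B*, a synaptic vesicle priming factor (43 and 63, 0.75), and in ENSG00000291075 (60 and 93, 0.83), a gene near *FOXD4L6* in the duplicated end of the arm.

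In the distal stretch, 122 of 191 sgCtrl peaks and 3 of 70 sgSNHG1 peaks lay over 1 kb from any peak of the other group. In the proximal stretch these were 80 of 274 and 30 of 229. The share of the whole series at this distance is not given here. By overlap of at least 1 bp, 38.5% of all sgCtrl peaks and 20.8% of all sgSNHG1 peaks were unshared. That threshold differs from the distance of 1 kb, so the counts beyond 1 kb have no background here and are given as a description only. Among the 5 of highest fold enrichment of the 122 were the promoter peak of *MLLT3*, a reader of acetylated histones (fold enrichment 8.99, 55 fragments, chr9:20621091-20621882), a peak 25964 bp from the start of *TYRP1*, a melanosome enzyme (8.48, 49 fragments), a peak 227696 bp from *CAAP1* (8.48, 49 fragments) and the promoter peak of *KCNV2*, a potassium channel subunit (8.02, 48 fragments). Their pileups of 48 to 55 lay in the upper part of the range of the unshared distal peaks (21 to 58). The 3 distal peaks that only sgSNHG1 held were the promoter peak of *MTAP*, which encodes methylthioadenosine phosphorylase (fold enrichment 7.95, 44 fragments, chr9:21802705-21802948), a peak in *DDX11L5* near the telomere (6.72, 37 fragments) and the *LINC03041* intron peak (4.12, 28 fragments). In the proximal stretch, the highest fold enrichments among the 80 sgCtrl peaks were 7.81 at 67321 bp from *ALDH1B1*, 7.47 in an intron of *LINGO2*, 6.70 at the promoter of *TRMT10B*, 6.50 in an exon of *SMIM27* and 6.11 between genes at 1085571 bp from *LINGO2*. Among the 30 sgSNHG1 peaks they were 7.78 at 13040 bp from *ANKRD18B*, 5.83 in the non-coding gene *LINC01242*, 5.66 at 152957 bp from *FOXD4L6*, 5.48 at 232191 bp from ENSG00000283886 and 4.79 at 3857 bp from *OR2S2*.

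Promoter peaks were then compared gene by gene, using the highest promoter peak of each gene in each list. Of 99 protein-coding genes in the distal stretch, 54 had a promoter peak in sgCtrl and 38 in sgSNHG1. The peak was found in sgCtrl only for 17 of the 54 (31.5%), where 7.08% of all genes with an sgCtrl promoter peak had none in sgSNHG1. For the 37 genes with a peak in both lists the median relative height was -0.51, 35 were lower (where 25.5% of all such genes were) and 15 were at least 1.5-fold lower (where 2.92% of all such genes were). Of 115 proximal genes, 85 had a promoter peak in sgCtrl and 77 in sgSNHG1, 8 of the 85 (9.41%) in sgCtrl only, with a median of 0.28 for the 77 in both, against 0.26 for genes of the other chromosomes.

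Among 14 distal regulators of transcription and chromatin, 12 had a promoter peak in sgCtrl and 8 in both lists, all 8 of them lower in sgSNHG1 (median -0.73). *UHRF2*, a ubiquitin ligase that binds modified cytosine, had 212 and 88 fragments (-1.07). *PSIP1*, a chromatin reader also known as LEDGF, had 161 and 82 (-0.78), *SNAPC3* 70 and 34 (-0.84) and *BNC2* 75 and 37 (-0.82). *NFIB*, a nuclear factor I transcription factor, had the highest promoter signal of the distal stretch, 244 and 132 fragments at the highest peak of each list, which were different peaks (-0.69). Among the peaks around its start sites, those with 238 and 132 fragments (-0.65) and 126 and 55 fragments (-0.998) were lower as well. *KDM4C*, an H3K9 demethylase, had 47 and 35 (-0.23). The sgCtrl list alone had promoter peaks at *SMARCA2*, an ATPase of the SWI/SNF complex (27 fragments), *GLIS3* (22), *DMRT2* (25) and *MLLT3* (55), of which only that of *MLLT3* exceeded 30 fragments.

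Of 14 distal growth and housekeeping genes, all had a promoter peak in sgCtrl and 13 in both lists, all 13 lower in sgSNHG1 with a median of -0.55 and a range of -0.91 to -0.40. The exception was *MOB3B*, with 38 fragments in sgCtrl only. *PLIN2*, a lipid droplet protein, had 140 and 80 fragments (-0.61), *DENND4C* 133 and 73 (-0.67), *HAUS6*, a subunit of the microtubule-binding augmin complex, 100 and 56 (-0.64), and *RRAGA*, a GTPase that signals amino acids to mTORC1, 84 and 54 (-0.44). The values for *PLAA* and *IFT74* come from 1 peak in a promoter that both genes share.

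At the *JAK2* and PD-1 ligand locus, 6 of 8 genes had a promoter peak in sgCtrl and 4 in sgSNHG1, with a median of -0.56. *JAK2*, a cytokine receptor kinase, had 29 fragments in sgCtrl (chr9:4984494-4984978) and no peak in sgSNHG1, as had *ERMP1* with 25. *CD274*, which encodes PD-L1, and *PDCD1LG2* had no promoter peak in either list. *KIAA2026* had 100 and 50 fragments (-0.80), *AK3*, a mitochondrial adenylate kinase, 86 and 47 (-0.67), *RIC1* 94 and 60 (-0.45) and *RCL1*, an rRNA processing factor, 96 and 67 (-0.32).

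At the *CDKN2A* locus, *CDKN2A* itself had little promoter signal in either list. This gene, which encodes the cell cycle inhibitors p16 and p14ARF, had 25 fragments in sgCtrl (chr9:21995094-21995331) and 23 in sgSNHG1 (chr9:21995677-21995888), at different and non-overlapping peaks. *CDKN2B* and *DMRTA1* had no promoter peak in either list. *MTAP* had one in sgSNHG1 only, as given above. *KLHL9*, an adaptor of a cullin ubiquitin ligase, had 70 and 57 fragments (-0.10), and *ELAVL2*, a neuronal RNA-binding protein, 45 and 29 (-0.44). The list as a whole had 3 genes with a peak in both lists and a median of -0.10, which was the least negative median of the distal lists. Because *CDKN2A* had peaks at other positions and *MTAP* none in sgCtrl, this median rests on few values. None of the 17 type I interferon genes had a promoter peak in either list.

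Of 13 neuronal and adhesion genes, 9 had a promoter peak in sgCtrl, 4 in both lists and 5 in sgCtrl only. The list was chosen with earlier results of these data known, and its 9 genes with an sgCtrl peak include *LINGO2* and *CNTFR* of the proximal stretch. The 5 were 55.6% of these 9, against 31.5% for all distal genes and 7.08% for all genes. These 5 were *VLDLR*, a reelin receptor (57 fragments), *FREM1* (27), *SH3GL2*, which encodes the synaptic protein endophilin A1 (25), *SLC1A1*, a glutamate transporter (24), and *KANK1* (21). All but *VLDLR* had fewer than 30 fragments, a class in which 1 of 74 distal sgCtrl peaks was shared. *MPDZ*, a PDZ scaffold protein, had 136 and 73 fragments (-0.70). *CNTFR*, the receptor of ciliary neurotrophic factor and the only gene of the list well inside the proximal stretch, had 169 and 141 (-0.06). *PTPRD*, a receptor tyrosine phosphatase, and *SLC24A2*, *DOCK8* and *ADAMTSL1* had none in either list.

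All 12 proximal regulators had a promoter peak in both lists, with a median relative height of 0.47, and so had 26 of 28 proximal growth and housekeeping genes, with a median of 0.41 and 22 of 26 above 0, where 74.4% of all genes with a promoter peak in both lists were. *VCP*, an ATPase that extracts ubiquitinated proteins, had 203 and 232 fragments (0.39), *DNAJA1*, an HSP40 chaperone, 189 and 251 (0.61) at a promoter it shares with *APTX*, *CREB3*, a membrane-bound transcription factor, 91 and 128 (0.69) at a promoter it shares with *TLN1*, and *UBAP2* 176 and 223 (0.54). *PAX5*, a B cell transcription factor, had 62 and 54 (0.00). *RECK*, an inhibitor of matrix metalloproteinases, had 85 and 112 (0.60), and its fold enrichment was 11.7 and 11.9. *GRHPR* (87 and 54, -0.49), *TESK1* (106 and 72, -0.36) and *SHB* (132 and 96, -0.26) were among the genes below 0. By percentile of fold enrichment within the list, 4 of the 12 regulators and 7 of the 26 other genes had the opposite direction, so no direction is given for the proximal lists. Among these were *SMU1*, with a relative height of 0.47 and a change in percentile of -3.18 percentage points, *ZBTB5* (0.47 and -2.01) and *RECK* (0.60 and -0.44). Of the 37 distal genes with a peak in both lists, 4 had the opposite direction, 1 each in the *CDKN2A* locus and the growth and housekeeping list and none of the 8 regulators.

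Long stretches of the arm had no peak. The longest in sgCtrl spanned 3.43 Mb from base 8191363 to 11618454 and held *PTPRD*, followed by 1.52 Mb from base 30299524 in the proximal stretch and 1.19 Mb that held *SLC24A2*. In sgSNHG1 the first of these was 4.58 Mb long, from 8191127 to 12775720, in which sgCtrl had 3 peaks, and also held *TYRP1*. The second spanned 2.83 Mb, from base 14922 to 2843635, in which sgCtrl had 11 peaks and which holds 10 protein-coding genes, including *KANK1*, *SMARCA2*, *VLDLR* and *KCNV2*. The third spanned 1.86 Mb and held *IZUMO3*. These stretches contained no unassigned bases of the reference (0%).

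The distal peaks also differed from other peaks within the sgCtrl list. Because the stretch was chosen with the numbers and heights of both lists in view, these values are given as a description only. Their median fold enrichment was 5.09, against 4.41 in the proximal stretch and 3.77 on the other chromosomes, while their median pileup was lower, at 33 fragments against 51 and 55. The local background was 5.11 fragments against 10.3 and 12.8, and it was at the lowest value of the list for 44.5% of the distal peaks, against 16.4% of the proximal ones and 12.5% on the other chromosomes. Chromosome 4 beyond base 52000000 had similar medians in sgCtrl, with a fold enrichment of 5.09, a pileup of 36 and a background of 5.48.

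The GC content of the distal peaks was near that of the series, and their ratio of observed to expected CpG was higher. The median GC content over 500 bp was 63.0% in the distal sgCtrl peaks, 61.8% in the proximal ones and 61.8% on the other chromosomes, and the median ratio of observed to expected CpG was 0.53, 0.44 and 0.38. In the distal sgSNHG1 peaks, with their larger share of promoters, these were 64.8% and 0.71. Chromosome 4 beyond base 52000000 had CpG ratios of 0.49 in sgCtrl and 0.73 in sgSNHG1. A ratio above that of the other chromosomes was thus not particular to the distal stretch. Of 8 motifs searched on both strands in 300 bp around each summit, the GC box GGGCGG was found in 46.1% of the distal sgCtrl peaks (interval 39.2% to 53.2%), 39.8% of the proximal ones and 37.5% of all sgCtrl peaks. The E-box CAGCTG was found in 29.8% (interval 23.8% to 36.7%), 27.4% and 27.8%, and CATCTG in 19.9%, 14.6% and 17.6%. The E-box CACGTG was found in 4.71% (interval 2.50% to 8.71%), 6.57% and 6.48%, and the ETS motif CCGGAAG in 4.19%, 3.28% and 3.81%. The GATA motif AGATAA was found in 2.62%, 3.28% and 2.54%, the CRE motif TGACGTC in 0.524%, 0.365% and 0.950%, and the AP-1 motif TGAGTCA in 1.047% (interval 0.288% to 3.74%), 2.19% and 3.05%. The intervals given for the distal shares of the E-boxes and the AP-1 motif include the shares of the whole list. The GC box was the exception in sgCtrl, with a lower bound of 39.2% against 37.5%. In sgSNHG1 its share was 52.9% in the distal stretch (interval 41.3% to 64.1%) and 48.0% in the proximal stretch (interval 41.65% to 54.5%). Of all sgSNHG1 peaks 40.3% had it, so a higher share was not particular to the distal stretch. Promoter peaks were 37.2% of the distal and 32.8% of all sgCtrl peaks.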

How the data were processed

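H3K27ac ChIP-seq peaks came from 2 sgCtrl and 2 sgSNHG1 samples of SK-N-BE(2)C. The authors aligned paired-end reads to GRCh38 with BWA after trimming with cutadapt, pooled the reads per group and ran MACS2 once on each pool with a p-value limit of 1e-06, keeping duplicates. Tool versions are not given in the sources used here. The deposited lists give for each peak the position, the summit offset, the fold enrichment (a ratio, set by the authors' peak caller, of summit signal to local background) and the −log10 of the p-value from the authors' peak caller. The lists were assigned to the groups by the names of their peaks. Values per replicate were not analysed here, and the depth per sample is unknown.

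Pileup and local background were recovered from fold enrichment and −log10 p under a Poisson model with a pseudocount of 1, and a whole number of fragments within 0.01 was obtained for 99.9% of the peaks of both lists. Shared peaks overlapped by at least 1 bp, and heights were compared at mutual best pairs. Genes came from GENCODE release 44 (78579 protein-coding start sites) and sequences from the GRCh38 reference. Shares have Wilson intervals, ratios of counts exact conditional binomial intervals and medians order-statistic intervals (95%). Intervals cover counting error only. With 1 list per group no test was made. The tools were Python 3.11.15, scipy 1.17.1, pandas 2.3.3, numpy 2.4.6 and, for figures, matplotlib 3.10.9. The recovery of pileups, the overlaps (against bedtools 2.31.1) and the height shift were tested on simulated data.

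The arm, its boundary and all gene lists were chosen with earlier results of these data known. Besides the genes of the lists, the genes named are those nearest to the 5 shared peaks of highest sgCtrl fold enrichment per stretch, the 5 highest peaks of either list over 1 kb from the other list, the 3 shared peaks on either side of the boundary, the 3 longest stretches without peaks, and the 5 lowest and 5 highest relative heights among peaks with a pileup of at least 20. The genes *LINGO2* (promoter), *NFIB* (single peaks) and *EPCAM* were singled out after their values were seen. Some genes and peaks under this rule are not reported here. Alternatives were lists of equal size, a −log10 p limit of 10, merging, other overlaps, boundaries at 26000000 and 30000000, leaving out bases from 38000000 on, other measures of height, GC matching, other references and other promoter windows.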

Additional observations from a re-analysis of the deposited data

How the results depend on the processing

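No paired analysis was possible because peaks were called on reads pooled over replicates, and so no replicate could be left out. Of the alternatives for the results by stretch, 73 values stayed within the counting interval of the reported value, 18 lay outside it and 1 reversed. With lists of equal size the distal peak number ratio was 0.449 and the proximal one reversed from 0.836 to 1.009. The reversal follows from that construction, since it removes sgCtrl peaks only. The shared percentages were then 39.7% (distal sgCtrl), 71.8% (proximal sgCtrl) and 72.5% (proximal sgSNHG1). The distal peak number ratio was 0.648 for promoter peaks and 0.200 for other peaks. The distal median relative height was -0.71 for promoter peaks set against all shared promoter peaks, and -0.17 by fold enrichment, for which the proximal median was 0.000802. With an overlap of 50% of both peaks the shared percentages were 24.6% and 67.1% (distal sgCtrl and sgSNHG1) and 57.3% and 68.6% (proximal), and within 1 kb 95.7% (distal sgSNHG1), 70.8% and 86.9% (proximal). The proximal promoter percentages were 48.4% and 54.3% without bases from 38000000 on, and 34.7% (sgCtrl) with start sites within 1 kb. The distal ratio stayed between 0.200 and 0.648 and the distal median between -0.71 and -0.17 under the alternatives run for them. Leaving out bases 28000000 to 32000000 of the proximal stretch, an alternative chosen after seeing the data, gave a ratio of 0.860 and a median of 0.07. By percentile of fold enrichment, in percentage points and not on the log2 scale, the direction differed from that of relative height for 4 of 12 proximal regulators, 7 of 26 other listed proximal genes and 4 of 37 distal genes, among them *RECK* at -0.44 (relative height 0.60). The pooled lists, the unknown depth and the peak threshold limit all values, most of all for peaks under 50 fragments.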
